A study of Drosophila melanogaster with 3 samples.

Results

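Transfer RNA (tRNA) genes were taken as all genes of biotype tRNA in the Ensembl BDGP6 annotation that lie on the 7 major chromosome arms of Drosophila melanogaster. There were 290 of them among 18277 annotated genes, and 22 mitochondrial tRNA genes were left out. The data were chromatin immunoprecipitation with sequencing of whole prepupae from a transgenic line that carries CG9139 with green fluorescent protein (GFP) at its C-terminus. The tagged gene is also named Rabex-5, and its product activates the small GTPase Rab5 on early endosomes. Males and females were pooled, the age on the labels was 24 hours, chromatin was sonicated to 200 to 800 bp, and an anti-GFP antibody was used. The 3 biological replicates form the only group and share the same tagged line, so conditions cannot be compared. All lists were made against 1 control alignment, whose origin is not given in the sources used here, and no library from untagged animals was analysed here. Whole animals were used, so the cell type behind a signal cannot be told.

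A tRNA gene is transcribed by RNA polymerase III from a promoter that lies inside the gene. Transcription factor TFIIIC recognises the A box and the B box within the transcribed sequence and places TFIIIB, which contains Brf and Bdp1, just upstream, where it recruits the polymerase. Transcription ends at a run of T bases shortly after the gene. Fly tRNA genes occur alone and in clusters, and many have exact copies elsewhere in the genome.

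The genes below lie near the strongest peaks at tRNA genes, except the arginine gene. Its peak had a lower signal and a summit 12 bp from the gene start. Sequences were read by strand from the Release 6 (dm6) genome, 5′ to 3′, and capitals mark the letters TTCNANNC of the B box, in which N is any base. The tyrosine gene with the highest signal lies at chr3R:8669081-8669174, minus strand; the proline gene at chr3R:17619961-17620032, plus strand; the first glutamine gene at chrX:3427452-3427523, minus strand; the second at chr3R:26947512-26947583, minus strand; the lysine gene at chr2L:8290727-8290799, plus strand; the arginine gene at chr3R:8862933-8863005, plus strand; and the alanine gene at chr3L:8028546-8028618, minus strand.
tRNA:Tyr-GTA-1-8: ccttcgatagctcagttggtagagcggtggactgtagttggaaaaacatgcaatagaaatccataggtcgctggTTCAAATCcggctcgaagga
tRNA:Pro-TGG-1-2: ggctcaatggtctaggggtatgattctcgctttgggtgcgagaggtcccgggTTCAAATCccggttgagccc
tRNA:Gln-TTG-2-1: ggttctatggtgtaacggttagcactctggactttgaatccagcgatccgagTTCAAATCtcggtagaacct
tRNA:Gln-TTG-1-3: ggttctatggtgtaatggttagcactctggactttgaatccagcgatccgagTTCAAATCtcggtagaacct
tRNA:Lys-TTT-1-1: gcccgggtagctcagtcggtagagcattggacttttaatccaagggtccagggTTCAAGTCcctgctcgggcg
tRNA:Arg-TCG-2-4: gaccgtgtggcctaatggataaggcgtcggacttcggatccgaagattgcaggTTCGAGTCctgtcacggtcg
tRNA:Ala-AGC-2-1: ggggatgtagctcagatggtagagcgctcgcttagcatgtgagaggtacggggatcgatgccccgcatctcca
The tyrosine gene is 94 bp long, against a median of 73 bp for all tRNA genes, and tyrosine tRNA genes are known to hold an intron. The alanine gene has no match to these letters. On the sense strand, 271 of the 290 tRNA genes (93.4%) held TTCNANNC, the median position of its first base was 54 from the gene start, and on either strand 277 (95.5%) held it. The first 73 bp of 13968 protein-coding genes held it on either strand in 15.6%. The letters were found on the sense strand in 25 of the 30 tRNA genes with a reproducible summit (83.3%) and in 78 of the 83 tRNA genes without any candidate (94.0%). Identical copies weigh on both shares. The alanine gene belongs to a family of 11 identical genes, of which 3 had a reproducible summit and 4 had no candidate.

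The context of the strongest member is shown because the summit lay outside the gene. The tyrosine gene is in capitals, with 60 bases to each side, at chr3R:8669021-8669234 on the minus strand.
tRNA:Tyr-GTA-1-8 with flanks: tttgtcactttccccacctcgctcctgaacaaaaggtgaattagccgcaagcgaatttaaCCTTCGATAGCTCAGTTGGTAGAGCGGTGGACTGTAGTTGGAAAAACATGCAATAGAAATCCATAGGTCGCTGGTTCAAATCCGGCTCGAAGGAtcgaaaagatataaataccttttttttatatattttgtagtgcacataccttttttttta
Runs of T bases follow the gene. The letters TTTT lay on the sense strand within 40 bp downstream in 287 of 290 tRNA genes (99.0%), at a median of 10 bases from the gene end, and in 30 of 30 with a reproducible summit. A match is a description of the sequence and not a measured binding site.

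Candidate summits were frequent at tRNA genes, and most of them, like most candidates of the pooled list, did not reach the reproducible list. Of the 290 tRNA genes, 146 (50.3%) had a candidate summit within 500 bp of the gene start in the pooled list, compared with 29.8% of protein-coding genes and 29.3% of all genes. In the shorter list, filtered by irreproducible discovery rate (IDR), which keeps regions that rank alike in replicates, 30 tRNA genes (10.3%) had a summit, compared with 10.7% of protein-coding genes and 9.84% of all genes. The IDR share was therefore near the background, while the pooled share was above it. When only IDR peaks among the strongest candidates of both other replicates were kept, the share was 8.97% without replicate 1, 5.17% without replicate 2 and 4.83% without replicate 3. This filter removes peaks and can only lower the share, and the shares of other genes under it are not given here. The pooled candidates at tRNA genes were of middle rank, with a median signal percentile of 58.4 and quartiles at 30.2 and 74.6. The exact 95% binomial intervals were 7.09 to 14.4% for the IDR list and 44.4 to 56.2% for the pooled list, and they cover counting error only, since neighbouring tRNA genes share summits. The pooled list held 30000 candidate regions and the IDR list held 4934 peaks, which were the strongest pooled candidates. Summits within 500 bp of a tRNA start numbered 127 in the pooled list and 21 in the IDR list. About the same proportion of candidates was thus kept at tRNA genes as in the whole list. Bases within 500 bp of a summit made up 18.1% of the known genome in the pooled list and 3.34% in the IDR list.

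Genes for other small RNAs were compared in the same way. Of 269 genes for small nucleolar RNAs (snoRNAs), which guide RNA modification, 39 (14.5%) had a pooled summit and 11 (4.09%) an IDR summit. Of 32 small nuclear RNA (snRNA) genes, most of which make splicing RNAs, 9 (28.1%, exact interval 13.7 to 46.7%) had a pooled summit and 3 (9.38%, interval 1.98 to 25%) an IDR summit, and in replicate 1 alone 16 (50%) had a candidate, more than the share of tRNA genes there. Of the tRNA genes with a pooled summit, 20.5% also had an IDR summit, with an exact interval of 14.3 to 28%. The same share was 35.9% for protein-coding genes, with an interval of 34.4 to 37.4%.

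The replicates differed in how much they listed at tRNA genes. With all 30000 candidates of each replicate, 110 tRNA genes (37.9%) had a summit in replicate 1, 157 (54.1%) in replicate 2 and 153 (52.8%) in replicate 3. The background of protein-coding genes was 33.9%, 39.2% and 31.1% in the same order. The tRNA share was higher in 3 of 3 replicates, by 4.05, 15.0 and 21.7 percentage points, with a mean difference of 13.6 ± 8.89 (SD, n = 3). An exact two-sided sign-flip permutation test gave p = 0.25, which is the smallest value that 3 replicates allow, so this design cannot reach 0.05.

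Among the 4934 strongest candidates of each replicate, as many as there are IDR peaks, the direction was not shared. In replicate 1, 19 tRNA genes (6.55%) had a summit, compared with 11.7% of protein-coding genes. In replicate 2 there were 41 (14.1%) against 12.2%, and in replicate 3 there were 49 (16.9%) against 10.6%. Replicate 1 was thus below the protein-coding share and the others were above it. The mean difference was 1.02 ± 5.75 percentage points (SD, n = 3), smaller than its spread (exact sign-flip permutation p = 0.75). It was 4.11 points without replicate 1, 0.556 without replicate 2 and -1.59 without replicate 3.

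**Figure D1:**
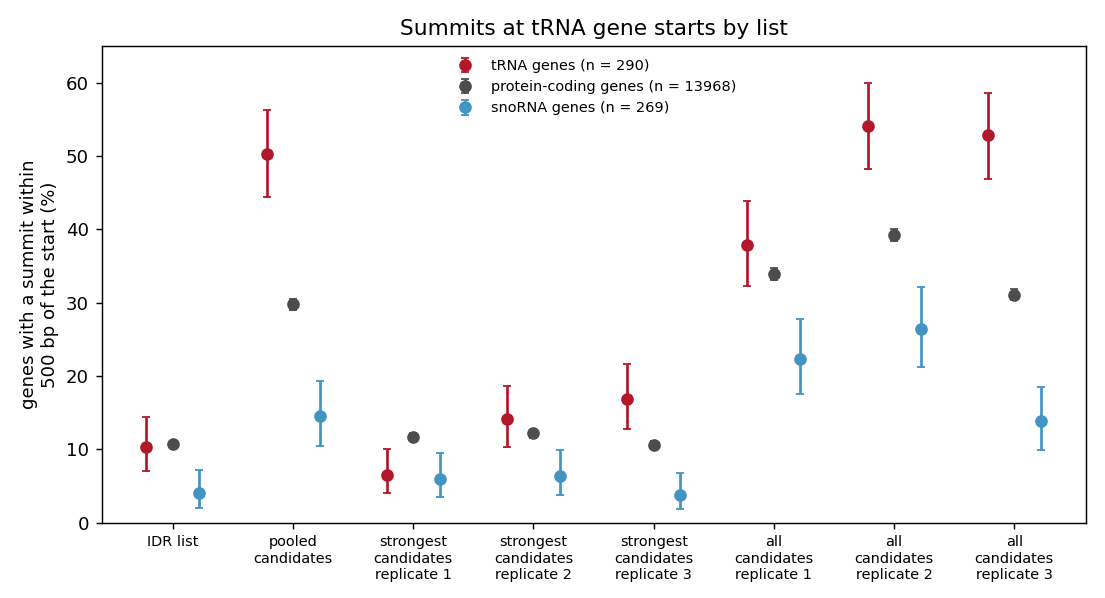
Percentage of genes with a summit within 500 bp of the gene start (y axis) in each deposited list (x axis), for tRNA, protein-coding and snoRNA genes; bars are exact 95% binomial intervals. The tRNA share is 10.3% in the IDR list and 50.3% in the pooled list, and among the strongest candidates it runs from 6.55% in replicate 1 to 16.9% in replicate 3.

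Recurrence accounted for every member. Among the strongest candidates, 14 tRNA genes had a summit in 3 replicates, 20 in 2 replicates, 27 in 1 replicate and 229 in none. Of the 14 genes found in 3 replicates, 13 also had an IDR summit; the exception was tRNA:Trp-CCA-2-2, which carries tryptophan. The most frequent pattern apart from none was presence in replicates 2 and 3 and absence from replicate 1, in 18 genes, and no gene was shared by replicates 1 and 2 alone. Among all candidates, 65 tRNA genes had a summit in 3 replicates, 83 in 2, 59 in 1 and 83 in none. Recurrence was not counted for other genes here, so whether these patterns are particular to tRNA genes was not tested. All 30 tRNA genes with an IDR summit had candidates in at least 2 replicates, 27 of them in 3. The IDR list was made from the same 3 replicates, so the overlap of its genes with recurrent genes is partly built in.

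Summits were closest together at the gene itself. In the pooled list there were 0.762 summits per kb within 250 bp of the nearest tRNA start and 0.328 per kb between 1000 and 5000 bp away, a ratio of 2.32. The ratio was 1.46 in replicate 1, 2.67 in replicate 2 and 2.73 in replicate 3, with a mean of 2.29 ± 0.717 (SD, n = 3). Around protein-coding starts it was 2.41, 3.00 and 2.27, with a mean of 2.56 ± 0.387 (SD, n = 3), so with all candidates the difference in ratio between the gene classes was within the replicate spread. Among the strongest candidates the ratio was 1.80, 3.05 and 3.93 at tRNA genes and 4.78, 5.43 and 4.79 at protein-coding genes in replicates 1, 2 and 3, and in the IDR list it was 2.64 and 4.63, so protein-coding starts had the higher ratio in each of these lists. For the level in the pooled list, protein-coding starts had 0.478 pooled summits per kb within 250 bp and 0.210 in the same flank. The whole genome had 0.219 summits per kb in the pooled list, so the flanks of tRNA genes were also denser than the average.

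Within the first 100 bp the pooled list had 1.02 summits per kb of sequence near tRNA starts, compared with 0.583 near protein-coding starts. With all candidates of a replicate, tRNA starts had 0.572 per kb in replicate 1, 1.06 in replicate 2 and 1.14 in replicate 3. Protein-coding starts had 0.658, 0.736 and 0.585 in the same order, so replicate 1 went the other way. At tRNA starts replicate 1 was low and the other replicates were alike. In the IDR list the values were 0.173 near tRNA starts and 0.178 near protein-coding starts.

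**Figure D2:**
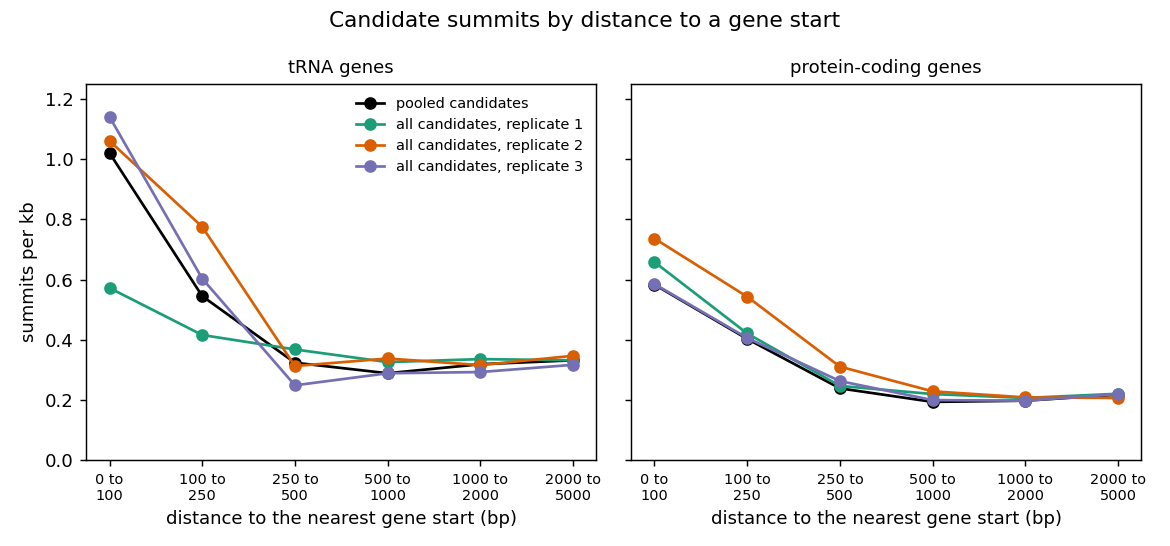
Candidate summits per kb of sequence (y axis) by distance to the nearest gene start in bp (x axis), for tRNA genes (left) and protein-coding genes (right); each line is a list. Near tRNA genes the first bin stands at 1.02 in the pooled list and at 0.572 in replicate 1.

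The 21 IDR summits nearest to tRNA genes were spread on both sides of the start. Of these, 6 lay upstream of the gene, 5 inside it and 10 downstream, and 17 (81.0%) lay within 250 bp of the start. Only summits within 500 bp were counted, so a high share within 250 bp is partly built in. At protein-coding starts 979 of 1290 IDR summits lay within 250 bp. With all candidates at tRNA genes the share was 64.6, 79.9 and 82.4% in replicates 1, 2 and 3. The median position of the 21 IDR summits was 50 bp downstream of the start, with quartiles at -41 and 160 bp. In the pooled list, 60 of 127 summits lay upstream, 29 inside and 38 downstream, with a median of 9 bp. The gene body, its internal promoter and the start lie within the sheared fragment length of 200 to 800 bp, so the lists do not resolve which of them a summit marks.

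The IDR peaks at tRNA genes had signals near the middle of the list or somewhat below it, depending on the measure. The signal is the authors' enrichment value for a region, which scales with depth, so it was divided by the replicate's own median over all IDR peaks. The median of these relative signals at tRNA genes was 0.753 in replicate 1, 0.843 in replicate 2 and 0.912 in replicate 3, against 1 by construction for all IDR peaks and 1.03, 1.03 and 1.02 for 1290 IDR peaks within 500 bp of a protein-coding start. Every replicate was thus below the median. The median over peaks of the mean of replicates was 0.983, next to 0.978 for all IDR peaks. This closeness rests on overlapping peaks that share replicate values, at tRNA:Ser-AGA-2-4 (0.983) and tRNA:Phe-GAA-1-2 (1.05). Each of them counts separately in this paragraph. When candidates had to cover at least 0.5 of the peak width, the median at tRNA genes was 0.833. In all, 9 of the 21 peaks were above the list's median signal. The median rank of the 21 peaks was at percentile 38.3 of the IDR list, and it was 44.6, 64.8 and 65.3 over the peaks kept without replicates 1, 2 and 3, as above. Those peaks were kept for their signal, which raises the percentile by itself, and no value for all IDR peaks kept likewise is given. The strongest candidates held 13 of the 21 peaks in replicate 1, 18 in replicate 2 and 21 in replicate 3, and 12 (57.1%) in all replicates, compared with 58.0% of all IDR peaks. In 12 of 21 peaks replicate 1 was the lowest, counting the peak without a candidate there, and in 6 it was the highest.

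The strongest peak lay at chr3R:8669240-8669504, 212 bp upstream of tRNA:Tyr-GTA-1-8, in the overlap of the protein-coding genes CG8036 and pink (p). Its relative signal was 2.85 in replicate 1, 3.87 in replicate 2 and 3.66 in replicate 3 (3.46 ± 0.540, SD, n = 3), and it ranked 176 in the IDR list. The summit was also 232 bp from the nearest start of CG8036. It was the only IDR peak at tRNA genes above 2 in the mean of the replicates.

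The second lay at chr3R:17619775-17619963, 89 bp upstream of tRNA:Pro-TGG-1-2, with tRNA:Ala-AGC-2-2 and tRNA:Ala-AGC-2-3 also within 500 bp. Its relative signal was 1.94, 2.14 and 1.89 in replicates 1, 2 and 3 (1.99 ± 0.129, SD, n = 3), the smallest relative spread of the peaks with 3 values. The nearest protein-coding start, CG14326, was 772 bp away. The same locus holds tRNA:Val-CAC-1-1 and tRNA:Pro-TGG-1-1, whose own IDR peak at chr3R:17617917-17618346 had relative signals of 0.558, 0.466 and 0.985. All 5 tRNA genes of this locus had an IDR summit.

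The peaks for glutamine and lysine tRNA genes followed. The peak at chrX:3427613-3427856, 184 bp upstream of the isolated tRNA:Gln-TTG-2-1, had relative signals of 1.91, 1.53 and 1.32 (1.59 ± 0.3, SD, n = 3) and lay inside CG12535, 8100 bp from a protein-coding start. The peak at chr3R:26947273-26947702 covered tRNA:Gln-TTG-1-2 and tRNA:Gln-TTG-1-3 and stood at 0.750, 1.79 and 1.81, so replicate 1 was well below the others. The peak at chr2L:8290953-8291112, 253 bp downstream of the start of tRNA:Lys-TTT-1-1, lay inside Btk, which encodes a Tec-family tyrosine kinase, and had relative signals of 1.53, 1.27 and 1.5. These glutamine and lysine peaks were among the strongest candidates of all 3 replicates.

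The peak at chr3L:8028058-8028267, near tRNA:Ala-AGC-2-1 and inside nmo, which encodes the kinase Nemo, had relative signals of 0.876, 1.19 and 1.85. Its summit was 451 bp from the tRNA start, and this gene and tRNA:Ala-TGC-1-1, at 469 bp, were the members just inside the distance of 500 bp. Just outside it were tRNA:Gly-TCC-2-2 at 561 bp and tRNA:Glu-CTC-3-3 at 568 bp.

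The largest relative spread was at tRNA:Phe-GAA-1-2, with 1.68 in replicate 1, 0.677 in replicate 2 and 0.778 in replicate 3. There, 2 IDR summits lay 364 and 163 bp from the tRNA start, in overlapping peaks that share these replicate values, and 8 and 142 bp from a start of RpL17, a ribosomal protein gene. A signal from the RpL17 promoter and one from the tRNA gene cannot be told apart. In all, 4 of the 21 IDR peaks had a protein-coding start within 500 bp of the summit and 7 had the summit inside a protein-coding gene. The isolated tRNA:Ser-AGA-2-4 also had 2 overlapping IDR peaks, with shared values of 0.756, 0.843 and 1.35.

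The remaining peaks had mean relative signals from 0.581 to 1.05, against a median of 0.978 over all IDR peaks. They included tRNA:Arg-TCT-1-1 with the elongator methionine gene tRNA:Met-CAT-1-1 (0.525, 1.51 and 1.11 in replicates 1, 2 and 3), tRNA:Ala-TGC-2-1 (0.652, 1.09 and 0.735), and tRNA:Glu-CTC-1-1 inside mrj, a DnaJ chaperone gene (0.612, 1.12 and 0.696). At tRNA:Arg-TCG-2-4, inside pyd, which encodes the junction protein Polychaetoid, the summit was 12 bp from the start and the values were 0.290, 0.738 and 0.856. At tRNA:Gln-CTG-4-1, near bgm, an acyl-CoA synthetase gene, the summit was 4 bp from the start and the values were 0.436, 0.395 and 0.912, the lowest mean of all. At the pair tRNA:Val-TAC-1-1 and tRNA:Val-TAC-1-2, replicate 1 had no candidate and replicates 2 and 3 stood at 0.770 and 0.809. The others were at tRNA:Glu-CTC-2-3 (mean 0.761), tRNA:Pro-AGG-1-2 (mean 0.748), tRNA:iMet-CAT-1-2 (mean 0.704) and tRNA:Glu-TTC-1-5 (mean 0.654).

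**Figure D3:**
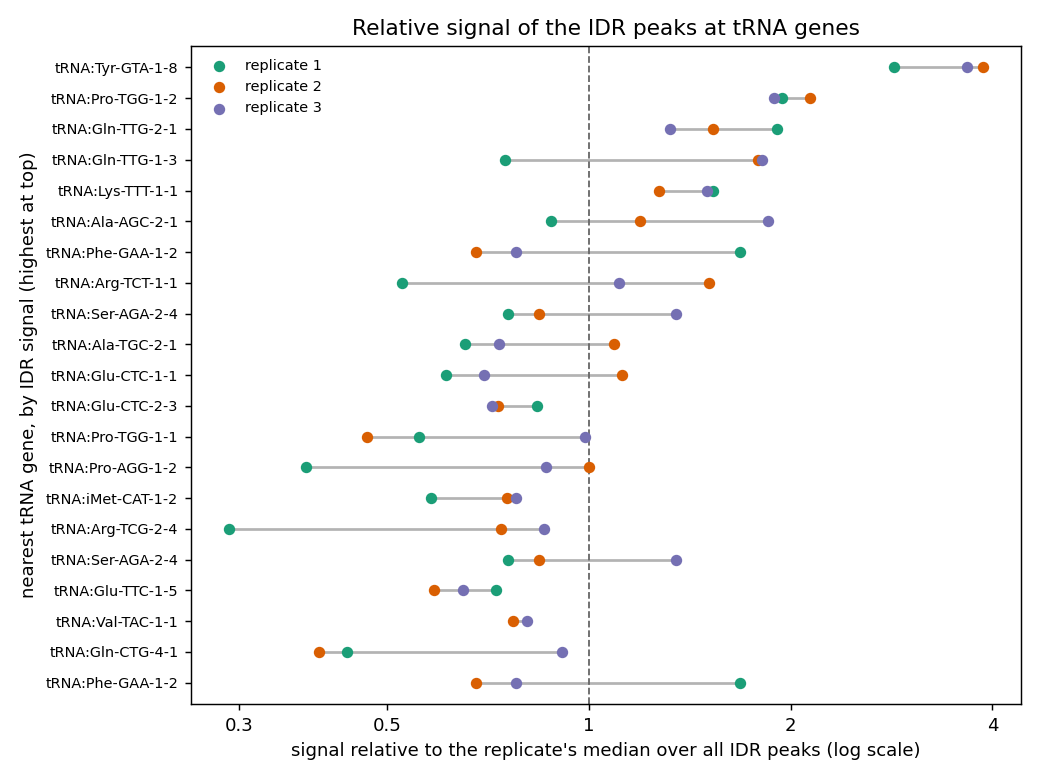
Signal of each of the 21 IDR peaks at tRNA genes divided by the replicate's median over all IDR peaks (x axis, log scale), with 1 row per peak named by its nearest tRNA gene (y axis, highest IDR signal at the top); points are replicates, lines join the lowest and highest, and the dashed line is 1. The top peak stands at 2.85 to 3.87, and replicate 1 is the lowest point in 12 of 21 rows, the row without a replicate 1 point included.

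The tRNA genes fall into 160 loci when starts within 2 kb are chained, of which 91 hold 1 gene. An IDR summit was found at 17 loci and a pooled summit at 88. The biggest loci hold 7 genes. One, from tRNA:iMet-CAT-1-1 to tRNA:Glu-CTC-2-2 on arm 2R, holds genes for the initiator methionine tRNA, which starts every protein, and for glutamate tRNA; it had 2 IDR summits, and 7, 7 and 6 of its genes had a candidate in replicates 1, 2 and 3. Another, from tRNA:Ile-AAT-1-3 to tRNA:Leu-CAA-1-1, had no IDR summit, and 1, 6 and 6 of its genes had a candidate. The third, from tRNA:Arg-TCG-2-1 to tRNA:Arg-TCG-3-4 on the X, had no IDR summit, and 4, 3 and 3 of its genes had a candidate. Of the loci with 6 genes, the cysteine locus at tRNA:Cys-GCA-1-1 had 5, 4 and 6 genes with a candidate, and the asparagine and arginine locus at tRNA:Asn-GTT-1-10 had 0, 1 and 6. At the last of these the replicates thus ran from none to all of the genes.

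The strongest pooled candidates outside the IDR list were just under its lowest signal of 105. They were at tRNA:Trp-CCA-2-2 with tRNA:Gly-GCC-1-9 (signal 99.6), tRNA:Leu-AAG-1-1 (97.5), the isoleucine pair tRNA:Ile-TAT-1-1 and tRNA:Ile-TAT-1-2 (92.6), the arginine locus on the X (92.5) and tRNA:Leu-TAA-2-1 (89.5).

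Clustered tRNA genes, with another tRNA gene within 2 kb, had higher shares than isolated ones except in replicate 1. An IDR summit was found at 23 of 199 clustered genes (11.6%) and 7 of 91 isolated genes (7.69%), with overlapping exact intervals of 7.47 to 16.8% and 3.15 to 15.2%. Neighbouring genes can share a peak, which raises the clustered shares. The 23 clustered genes had 12 IDR peaks and the 7 isolated genes had 9, so peaks per gene were fewer at clustered genes. By locus, an IDR summit was found at 10 of 69 loci with 2 or more genes and at 7 of 91 single-gene loci. A pooled summit was found at 107 clustered (53.8%) and 39 isolated genes (42.9%). Among the strongest candidates the clustered and isolated shares were 6.03 and 7.69% in replicate 1, 17.6 and 6.59% in replicate 2, and 20.1 and 9.89% in replicate 3. The difference was above 0 in 2 of 3 replicates, with a mean of 6.51 ± 7.09 percentage points (SD, n = 3; exact sign-flip permutation p = 0.5), and it was 10.6 points without replicate 1, 4.27 without replicate 2 and 4.67 without replicate 3. Farther than 500 bp from a protein-coding start it was 5.69 ± 7.14 points (SD, n = 3; exact sign-flip permutation p = 0.5), with 9.79, 3.47 and 3.77 points without replicates 1, 2 and 3. The IDR peaks at isolated genes recurred in the strongest candidates of all replicates in 8 of 9 cases and those at clustered genes in 4 of 12. The 9 include 2 overlapping pairs that share replicate candidates, and counted by gene it was 6 of 7 isolated genes.

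tRNA genes within 500 bp of a protein-coding start had the higher share in every replicate. Among the strongest candidates, 15.6, 25 and 34.4% of the 32 tRNA genes with a protein-coding start within 500 bp had a summit in replicates 1, 2 and 3. The shares were 5.43, 12.8 and 14.7% for the 258 others. The difference was above 0 in 3 of 3 replicates (14.0 ± 4.98 percentage points, SD, n = 3; exact sign-flip permutation p = 0.25, the smallest possible). With nearness set at 200 bp the direction turned to -12.7 points, but only 3 tRNA genes are that near, and 0 of them were among the strongest candidates. Among all candidates it was 5.45 ± 3.45 points (SD, n = 3; exact sign-flip permutation p = 0.25), and 3.47 points without replicate 2. The pooled share was 50.0% for tRNA genes away from protein-coding starts and 53.1% near them, so the pooled share of tRNA genes stayed above the protein-coding share of 29.8% without the genes near such starts.

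tRNA genes between protein-coding genes had an IDR summit in 22 of 156 cases (14.1%), and those inside a protein-coding gene in 8 of 134 (5.97%). The exact intervals were 9.05 to 20.6% and 2.61 to 11.4%. The strongest candidates held 8.97, 16.7 and 25% of the former and 3.73, 11.2 and 7.46% of the latter in replicates 1, 2 and 3. Among the strongest candidates the share was thus higher between genes in every replicate. With all candidates it was 42.9, 59 and 54.5% between genes and 32.1, 48.5 and 50.7% inside them, a small gap in replicate 3. Neighbouring tRNA genes can share a summit, and this contrast was not tested.

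**Figure D4:**
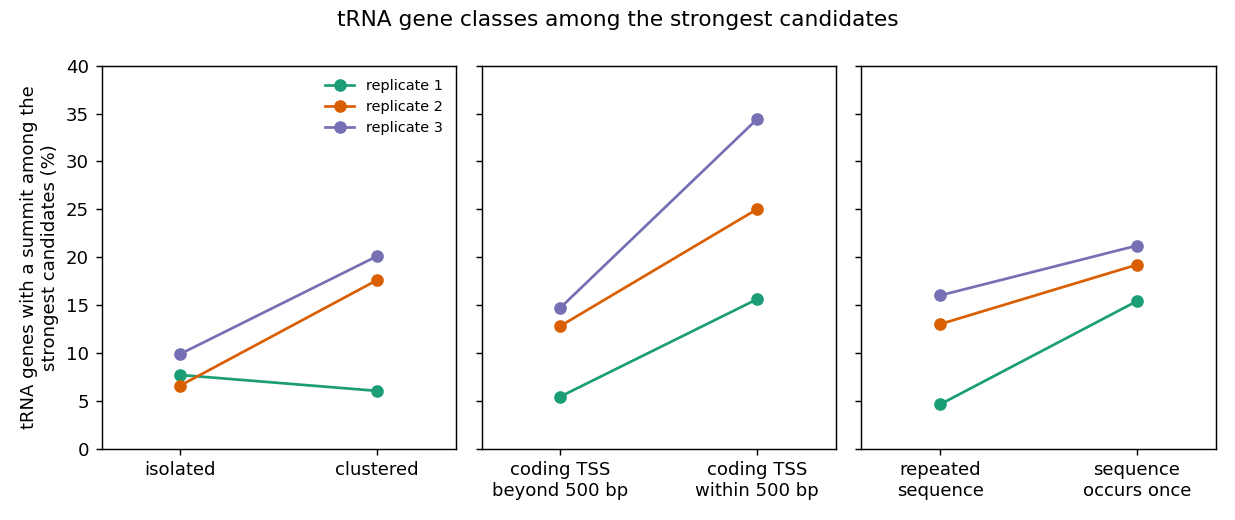
Percentage of tRNA genes with a summit among the strongest candidates (y axis) for the class pairs on the x axes; each line is a replicate. Lines rise from 5.43, 12.8 and 14.7% to 15.6, 25 and 34.4% for nearness to a protein-coding start, while replicate 1 falls from 7.69 to 6.03% between isolated and clustered genes.

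Identical copies of a tRNA gene often differed in whether a summit was listed. The 290 genes have 95 distinct sequences, of which 52 occur once, and 43 families of 2 or more genes hold the other 238. An IDR summit was found at some but not all genes in 11 families, at all genes in 1 family and at none in 31. A pooled summit was found at some but not all genes in 33 families. Of the 238 genes, 48.7% had a pooled summit and 8.82% an IDR summit, against 50.3% and 10.3% of all tRNA genes. Whether copies differ from each other more than other tRNA genes do was not tested. The alanine family tRNA:Ala-AGC-2 has 11 identical genes, of which 3 had an IDR summit. No candidate in any replicate was found at 4 of them, among which are tRNA:Ala-AGC-2-4 and tRNA:Ala-AGC-2-5. The glutamate family tRNA:Glu-TTC-1 had an IDR summit at 4 of 6 genes and a pooled summit at 6 of 6. The proline family tRNA:Pro-AGG-1 had a pooled summit at 7 of 7 genes and an IDR summit at 1. The lysine family tRNA:Lys-CTT-1 had no IDR summit and a pooled summit at 3 of 13 genes.

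Genes whose sequence occurs once were among the strongest candidates in 15.4, 19.2 and 21.2% of cases in replicates 1, 2 and 3, and genes with a copy in 4.62, 13 and 16.0%. The difference was above 0 in 3 of 3 replicates (7.39 ± 2.97 percentage points, SD, n = 3; exact sign-flip permutation p = 0.25, the smallest possible). Among all candidates it was above 0 in 2 of 3 replicates (8.35 ± 10.1 points, SD, n = 3; exact sign-flip permutation p = 0.5), and it was 2.83 points without replicate 1 and 12.7 without replicate 2. How reads that match several copies were placed is not given in the sources used here, and its part in these shares was not tested.

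By amino acid, and leaving out the single selenocysteine gene, which had no pooled summit, the pooled share ran from 25% for tryptophan to 83.3% for initiator methionine. The initiator genes had a candidate at 5 of 6 genes in each replicate, and 2 of the 6 had an IDR summit. Proline genes had a pooled summit at 13 of 17 (76.5%), and 70.6, 76.5 and 47.1% of them had a candidate in replicates 1, 2 and 3. Glutamate genes had a pooled summit at 14 of 19 (73.7%), with replicate shares of 47.4, 63.2 and 68.4%, and 6 of them had an IDR summit, the most genes of any amino acid, although neighbouring glutamate genes share peaks. Alanine followed with 5 of 17 genes and glutamine with 4 of 12.

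Lysine genes were at the other end, with a pooled summit at 5 of 19 (26.3%) and replicate shares of 21.1, 26.3 and 42.1%. Glycine and serine genes stood at 30% each in the pooled list, but glycine had 60% in replicate 2 and serine 50.0% in replicate 1. Isoleucine genes had 18.2% in replicate 1 against 81.8% and 72.7% in replicates 2 and 3. No IDR summit was found at the genes for asparagine, aspartate, cysteine, glycine, histidine, isoleucine, leucine, selenocysteine, threonine or tryptophan. Strong replicate candidates could still be present. Near tRNA:Gly-GCC-1-13, in a locus with tryptophan genes, candidates stood at percentiles 96.5 and 96.8 in replicates 2 and 3, without any pooled summit. Of the 20 tRNA genes among the strongest candidates of 2 replicates, 16 had a pooled summit. Why the others had none was not tested. The groups are small, their genes share loci, and replicate shares differ widely within several of them.

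**Figure D5:**
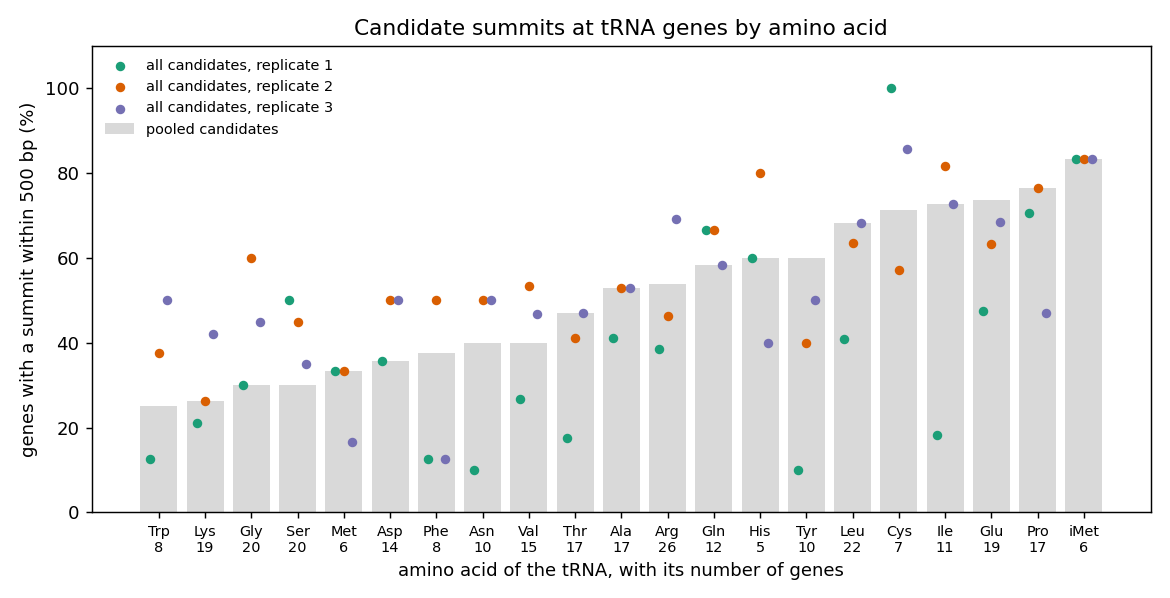
Percentage of tRNA genes with a summit within 500 bp (y axis) by amino acid (x axis, with the number of genes; the single selenocysteine gene is left out); grey bars are the pooled candidates and points the 3 replicates. Bars rise from 25% for tryptophan to 83.3% for initiator methionine, while the points of 1 amino acid often lie far apart, as for isoleucine at 18.2, 81.8 and 72.7%.

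The windows around summits at tRNA genes often hold part of the gene. The 201 bp around the summit held TTCNANNC on either strand in 15 of 21 IDR peaks at tRNA genes (71.4%), against 31.6% of all IDR peaks, and in 63.8% of the pooled candidates at tRNA genes against 32.3% of all. GAGAG, the core of GAGA factor sites, lay in 5 of 21 (23.8%) and in 34.5% of all IDR peaks. CACTGAGA was found in 0 of 21 and in 3.38% of all IDR peaks, and TGACTCA, an AP-1 site, in 1 of 21 (4.76%) and in 1.80% of all. In the pooled list GAGAG lay in 28.3% of candidates at tRNA genes and 28.5% of all, TGACTCA in 1.57% and 2.10%, and CACTGAGA in 0 of 127 and 1.92%. Both strands were read for each word, and matches to different words can share bases.

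Other genes of the RNA polymerase III system were compared by any annotated start for the protein-coding ones, for which the background was 13.1% in the IDR list and 32.5% in the pooled list. Of 22 matched genes for the polymerase, its factors and tRNA processing, 2 (9.09%) had an IDR summit and 5 (22.7%) a pooled summit. Those in the IDR list were Brf, the TFIIIB subunit, with relative signals of 2.27, 1.39 and 1.27 in replicates 1, 2 and 3, and Polr3E, a polymerase subunit, with 1.92, 1.27 and 1.94. Maf1, which represses the polymerase, had a pooled summit 76 bp from a start and no IDR summit nearby.

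Of 18 matched genes for cytosolic aminoacyl-tRNA synthetases, which load tRNAs with amino acids, 4 (22.2%) had an IDR summit and 8 (44.4%) a pooled summit. IleRS had relative signals of 1.5, 1.49 and 0.944, ThrRS of 1.03, 0.864 and 0.665, and AspRS of 0.945, 0.593 and 0.498, and AlaRS had 0.489 in replicate 1 and 0.792 in replicate 3 with no candidate in replicate 2.

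Of the other genes that RNA polymerase III transcribes, 100 belong to the 5S ribosomal RNA array, where 1 had a pooled summit and 0 had an IDR summit. The array consists of near-identical copies, so reads there are uncertain. Of the 10 others, 4 had an IDR summit, from 3 peaks, against 9.84% of all genes. The 7SK RNA gene snRNA:7SKa, whose RNA restrains transcription elongation, had relative signals of 1.52, 1.17 and 1.36 (1.35 ± 0.174, SD, n = 3). RNaseMRP:RNA, the RNA of an RNA-cleaving enzyme, had 1.17, 0.689 and 0.792. The U6 genes snRNA:U6:96Ab and snRNA:U6:96Ac shared 1 peak with 0.492, 0.693 and 1.44, while the 7SL genes, whose RNA is part of the signal recognition particle, had no summit within 500 bp in either list. These genes use promoters of several kinds, and both genes with and genes without a summit were found among them.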

How the data were processed

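Chromatin immunoprecipitation libraries of 3 biological replicates of 1 group were deposited as region lists. Per the deposited text notes, the authors compared reads of each replicate and of the pooled replicates with 1 control alignment to give 30000 candidate regions a list, and thresholded them by IDR to 4934 peaks on dm6. Which aligner, caller and IDR cutoff they used is not given in the sources used here. The signal in each list is the authors' enrichment value, which scales with depth; without read counts in the files, the depth of a sample is unknown, and intervals reflect only counting error. The deposited summit offsets were turned into 1-based positions.

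Genes came from Ensembl release 115 and sequence from the Release 6 genome; dm3 lists were not used. Transposable element entries were left out of the gene total. A gene was counted if a summit lay within 500 bp of its start. The strongest candidates of a replicate were the 4934 of highest signal. The relative signal was taken from the strongest replicate candidate overlapping an IDR peak by at least 1 bp. Replicates were compared by an exact sign-flip permutation test of the within-replicate differences; each such p stands unadjusted. Exact intervals are Clopper-Pearson. Loci were named by rule: those with an IDR summit, the biggest 5, the 5 strongest without one, those of largest and smallest replicate spread, and genes at the edge of the distance. A few families, amino acids and pathway genes were named after their values were seen. The members and lists were chosen with earlier results of these data known. Matching was tested on simulated summits. Python 3.11.15, numpy 2.4.6, scipy 1.17.1, pandas 2.3.3 and matplotlib 3.10.9 were used.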

Additional observations from a re-analysis of the deposited data

How the results depend on the processing

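Depth is unknown and no library without the tagged protein was analysed here, so background in the candidate lists cannot be told from weak signal, and the aligner's treatment of identical copies limits statements on families. The share of tRNA genes with an IDR summit moved from 10.3% to 5.86% at a distance of 200 bp, 14.5% at 1000 bp, 6.21% when the peak had to overlap the gene, 4.48% with peaks above the median signal and 17.3% for genes whose sequence occurs once; leaving out a replicate gave 4.83 to 8.97%. With loci counted once it was 10.6% and away from protein-coding starts 9.69%. A shorter distance, a higher signal or leaving out a replicate in this way can only lower the share. Other genes were not counted under these settings here, so whether the falls are particular to tRNA genes was not tested. The pooled share of 50.3% moved to 31.0% at 200 bp, 64.1% at 1000 bp and 35.9% by overlap, and was 55.0% over loci. The mean excess over protein-coding genes among the strongest candidates, 1.02 percentage points, reversed to -0.802 with the 2000 strongest candidates, and leaving out a replicate gave -1.59 to 4.11; without replicate 3 it was reversed. With only 3 tRNA genes within 200 bp of a protein-coding start, none of them among the strongest candidates, the near-minus-far difference reversed from 14.0 to -12.7. The relative signal of IDR peaks at tRNA genes moved from 0.983 to 0.833 when candidates had to cover at least 0.5 of the peak width, and leaving out a replicate gave 0.819 to 0.911. Their median percentile of 38.3 became 44.6 to 65.3 when only peaks among the strongest candidates of both other replicates were kept. Such a choice by signal raises the percentile by itself. The clustered-minus-isolated difference kept its sign under each alternative, from 3.75 to 10.6 points. Each of these alternatives counts genes, and neighbouring genes can share a summit. The share of summits within 250 bp, among those within 500 bp, was 66.7 to 81.0% under these alternatives. It was 64.6% with all candidates of replicate 1.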
